A study of Mus musculus with 171 samples.

Results

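The thymus and the spleen were compared across all probes of a mouse tissue expression survey. Arrays were chosen by their labelled source, which gave 4 of 171 arrays: 2 of thymus and 2 of spleen. Each array was a 2-channel spotted array that held total RNA of a tissue beside a universal mouse reference RNA. The thymus is labelled as normal adult, with no strain. The spleen is labelled C57, with no age. Treatment and sex are not stated for either organ. A pair of arrays of lymph node labelled unstimulated was set beside both organs. Other arrays used for reference levels were blood mononuclear cells taken over ficoll, brown adipose tissue and haematopoietic liver of fetal day 14, each with 2 arrays and no strain stated. Whether 2 arrays of 1 organ hold RNA of different animals is not stated. The titles of both thymus arrays end in the same code, and so do those of both spleen arrays. What these ending codes stand for is not stated either. Every p-value rests on the spread between arrays of the same source, estimated over all sources, and that spread could be technical alone.

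The thymus is where T cells mature. Its lobules hold mostly immature T cells, called thymocytes, within a network of epithelial cells that present self antigens and remove or rescue developing cells, and it is surrounded by connective tissue and fat. The spleen has a white pulp of B and T cell areas and a red pulp that stores blood cells, clears aged red cells and recycles their iron. In the mouse the red pulp also makes red cells, granulocytes and platelets throughout life. In whole organs, fewer cells of a type and less RNA per cell cannot be told apart.

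The values are log ratios, read here as likely log2 of tissue over reference. Each probe had been centred near 0 over all 171 arrays, so that 0 is the usual level of that probe and levels of different probes cannot be compared. If the base is 2, a difference of 1 is a 2-fold difference. The direction of the ratio is not stated in the sources used here. It was taken from defining markers: Thy1, a surface protein of thymocytes, was highest of all 88 sources in thymus, and the globin gene Hba-a1 reached 10.2 and 10.1 in blood mononuclear cells. Turning the sign would swap higher and lower throughout.

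The 2 thymus arrays correlated at r = 0.894 over probes, and the 2 spleen arrays at r = 0.876. Between a thymus and a spleen array r lay between 0.070 and 0.202. Probe values numbered 8638 on each array except the second spleen array, which held 5495. Of the probes tested, 3143 thus had a single spleen value. Their share called was 41.2%, against 68.1% of the 5495 probes with both spleen values. The titles of both thymus arrays hold the letters AC and those of both spleen arrays the letters AF. These letters are read here as an array lot, and together with the next character as an array series. The labels do not say what the letters stand for. Lot and organ therefore go together in these 4 arrays, and lot was separated from organ only through the 22 sources of the series that have arrays of both lots.

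Thymus and spleen differed at most probes. With limma fitted to all arrays, 5040 of 8638 probes (58.3%) passed adjusted p under 0.05, 2745 of them higher in thymus and 2295 higher in spleen. With 1 probe for each of 5702 genes, 1846 genes (32.4%) were higher in thymus and 1540 (27.0%) were lower, and the median difference, thymus minus spleen, was 0.055. Against these shares each gene group below is to be read. A difference of at least 1 was reached by 937 genes in favour of thymus and by 955 in favour of spleen. The thymus had the highest mean of all 88 sources for 373 genes (6.54%) and the spleen for 253 genes (4.44%). A single source would be highest for 1.14% of genes if all were equal. Both thymus arrays lay above the means of all other sources for 280 genes (4.91%). For spleen the same held for 68 genes (1.19%), where genes with a single spleen value could not count. A call rested on 2 thymus arrays against 2 spleen arrays, or against 1 for 1296 of the 5040 called probes, with the error estimated over all sources. With array series as a covariate 3717 probes were called, 65.7% of them higher in thymus, against 54.5% without it.

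**Figure D1:**
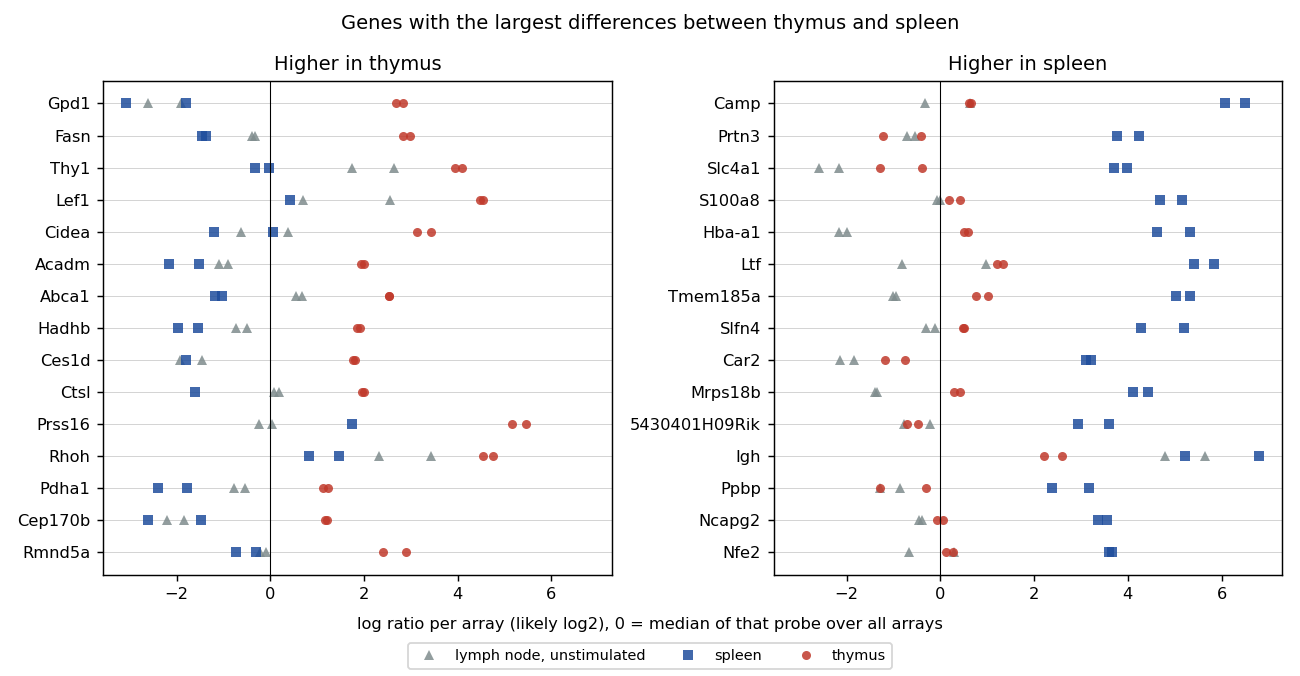
Log ratio per array (likely log2) of the 15 genes with the largest difference in each direction, with thymus as circles, spleen as squares and unstimulated lymph node as triangles. For every gene both thymus arrays lie apart from the spleen arrays. Lymph node values lie near those of spleen for Gpd1 and near those of thymus for S100a8 and Camp.

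T cell genes were higher in thymus. Of 14 measured genes of the T cell receptor and its proximal signalling, 9 were higher in thymus, none was lower, and the median difference was 1.61. Thy1 read 3.94 and 4.08 in thymus and -0.036 and -0.33 in spleen, a difference of 4.19 ± 0.26 (SE; limma, adjusted p = 1.1e-25). Since Thy1 was also used to set the direction of the ratio, the sign of its difference was fixed in advance. Rhoh, a small GTPase that recruits the kinase Zap70 to the receptor, read 4.55 and 4.76 in thymus and 1.46 and 0.83 in spleen, and was highest of all sources in thymus. Both genes had all thymus arrays above all spleen arrays, and both had lymph node values in between. Fyn, a Src family kinase of the receptor complex, was higher by 2.59 ± 0.26. Cd6, a co-receptor that binds Alcam, was higher by 2.79 ± 0.40, with a single spleen value of 1.08. Cd247, the zeta chain of the receptor, did not pass the test, with a difference of 0.086. The chains Cd3e, Cd3d, Cd8a and Cd8b1, the kinase Lck and the genes Rag1, Dntt and Ptcra had no probe, so immature thymocytes were not assessed by their usual defining markers.

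Transcription factors listed for the T lineage were more often higher than lower in thymus. The list is not confined to that lineage: Tal1 and E2f2 are also on the red cell list, and E2f1 is on the DNA replication list. Of 24 measured, 11 were higher and 5 lower, with a median of 0.45. Lef1, which with Tcf7 drives early T cell commitment, read 4.53 and 4.47 in thymus and 0.43 on the single spleen array that measured it, a difference of 4.07 ± 0.46. Satb1, an organiser of thymocyte chromatin, read 3.71 and 4.06 against a single spleen value of 0.95. Ets1, which is needed for thymocyte differentiation, read 3.24 and 3.64 against 0.63 and 0.59. Lef1, Satb1 and Ets1 were each highest of all 88 sources in thymus. The factors called the other way were led by Tal1, which marks blood progenitors and red cell precursors and was lower in thymus by 2.83 ± 0.19. Tal1 read -1.47 and -1.33 in thymus, the lowest mean of all sources, and 1.59 and 1.27 in spleen, the highest.

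Genes of thymocyte development and receptor rearrangement went both ways. Of 15 measured, 7 were higher in thymus and 4 lower, with a median of 0.44. Sox4, which acts in early T cell development, was higher by 2.92 ± 0.44 (its other probes gave 0.18 and 1.83), and Arpp21, a gene known from immature thymocytes, by 2.50 ± 0.43 with a single spleen value. Notch1, the receptor that commits progenitors to the T lineage, read 1.19 and 1.32 in thymus and 0.20 and -0.28 in spleen. Hmgb2, a chromatin protein of dividing cells, was instead lower in thymus by 2.49 ± 0.20. So were Cd24a, a surface protein of immature blood cells, by 1.79 ± 0.20, and Il7r, the receptor of interleukin 7, by 0.89 ± 0.24. Without the first spleen array only 8 of the 15 genes could be tested, with 2 higher in thymus and 3 lower. Nr4a1, a gene induced by receptor signalling and linked to the death of self-reactive thymocytes, is not among these 15. It is on the apoptosis list and on the list of immediate early genes, which move with tissue handling. Nr4a1 read 2.16 and 2.14 in thymus and -0.60 on the single spleen array. The thymus was the highest of all sources for it.

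Thymic epithelium was seen through few probes. Of 10 measured genes of the list, 6 were higher in thymus and 1 was lower, with a median of 1.14. Prss16, a serine protease of cortical epithelium, read 5.46 and 5.16 in thymus, highest of all sources, and 1.74 on a single spleen array. The difference was 3.56 ± 0.43. Ctsl, the protease that cuts invariant chain in cortical epithelium, was higher by 3.58 ± 0.66, also with a single spleen value. Foxn1, the master factor of thymic epithelium, did not pass the test: it read -0.16 and 0.52 in thymus and 0.063 and 0.22 in spleen, so the groups overlapped. Krt19, an epithelial keratin, read -1.28 and -1.40 in thymus and -3.13 and -3.29 in spleen. Its thymus values still lay below the usual level of that probe. Kitl, the stem cell factor, was lower in thymus by 1.79 ± 0.29 with a single spleen value, and another probe of it gave 0.11. Without the first spleen array 6 genes could be tested, of which 3 were higher in thymus. Psmb11, Ccl25, Krt5 and Krt8 had no probe.

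B cell genes were higher in spleen. Of 24 measured, 16 were lower in thymus, 1 was higher, and the median difference was -1.30. Igh, the immunoglobulin heavy chain locus, read 6.81 and 5.21 in spleen and 2.59 and 2.20 in thymus, a difference of -3.62 ± 0.42. Cd79a and Cd79b, the signalling chains of the B cell receptor, were lower in thymus by 2.02 ± 0.26 and 1.53 ± 0.31. Ms4a1, which encodes CD20, read 1.60 and 1.43 in spleen and -0.21 and -0.19 in thymus. Lmo2, listed here as a germinal centre gene and also known from blood progenitors, was lower by 2.49 ± 0.24. Cd79b read 1.34 and 0.85 in thymus, above the usual level of its probe, and placed thymus the sixth of 88 sources. The number of B cell genes lower in thymus was 7 with array series as a covariate, and 10 of 16 tested without the first spleen array. Siglecg, an inhibitory receptor of B cells, differed by -2.65 ± 0.50 but lost its call with series as a covariate (adjusted p = 0.08).

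Genes of antibody secretion and of antigen presentation did not all lie on the spleen side. Of 4 plasma cell genes 3 were higher in thymus, and Igh was the one lower. Jchain, which joins antibody polymers, was higher in thymus by 1.44 ± 0.33, with 2.32 and 2.48 in thymus and 1.04 and 0.89 in spleen. Edem1, a factor of endoplasmic reticulum quality control, was higher by 2.56 ± 0.21 and was highest of all sources in thymus. Among 15 genes of MHC class II and its loading, 4 were higher in thymus and 3 lower, with a median of -0.01. This split was unstable: 3 were higher and 1 lower without the second thymus array, 3 and 5 without the second spleen array, and 7 and 2 with lot as a covariate. H2-Aa read 3.55 and 3.93 in thymus and 2.35 and 1.62 in spleen, and H2-DMa, which loads peptides, 2.45 and 2.76 against 1.60 and 0.23. Both thus lay above the usual level of their probes in both organs. For MHC class I, 4 of 7 genes were higher in thymus and 1 lower. B2m, its light chain, was higher by 1.35 ± 0.19, while other probes of B2m gave 0.10 and -0.85.

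Red cell genes lay on the spleen side. Of 29 measured, 26 were lower in thymus, none was higher, and the median was -2.25. Hba-a1, alpha globin, read 4.62 and 5.33 in spleen and 0.58 and 0.50 in thymus, a difference of -4.44 ± 1.02. Its near-identical copy Hba-a2 may share the signal. Slc4a1, the band 3 anion exchanger of the red cell membrane, read 3.69 and 3.97 in spleen and -0.39 and -1.28 in thymus, a difference of -4.67 ± 0.40. Alas2, which starts haem synthesis in red cell precursors, read 2.13 and 2.22 in spleen and -0.80 and -1.32 in thymus. All spleen arrays lay above all thymus arrays for these genes. Car2, carbonic anhydrase 2, was lower in thymus by 4.12 ± 0.30, Nfe2, a globin gene regulator, by 3.43 ± 0.34, and Tfrc, the transferrin receptor of cells that take up iron, by 3.02 ± 0.20. The factors Gata1 and Klf1, which drive red cell differentiation, were lower by 1.40 ± 0.23 and 2.18 ± 0.23. With lot or series as a covariate, 25 and 23 genes stayed lower in thymus.

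Haematopoietic fetal liver read close to spleen over these genes. The mean over the 29 genes was 1.83 and 1.73 in spleen, 1.79 and 1.82 in haematopoietic fetal liver and 0.49 and 0.54 in blood mononuclear cells, against -0.24 and -0.40 in thymus. Single genes differed in this order. Hba-a1 was highest in blood, at 10.2 and 10.1, and read 6.80 and 7.04 in fetal liver. Alas2 also was highest in blood, at 5.42 and 5.45, while Slc4a1 read 0.22 and 0.33 in blood and 4.0 and 4.25 in fetal liver. The share of blood held in each organ was not tested.

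The promoters of red cell genes are printed because these genes moved together. GATA1 binds the bases AGATAA or TGATAA, and KLF1 binds a CACC box, CCACCC. Windows of RefSeq (GRCm38.p6) from 250 bases before to 50 after a start were searched on both strands, and 23 of the 29 genes had a window. A GATA motif was in 11 of the 23 genes (47.8%), against 632 of 4655 array genes with a window (13.6%). A CACC box was in 14 (60.9%) against 41.5%. The windows of Alas2 (chrX:150547167-150547466, plus strand) and Hba-a1 (chr11:32283422-32283721, plus strand) follow, with GATA motifs and CACC boxes of either strand in capitals.
Alas2: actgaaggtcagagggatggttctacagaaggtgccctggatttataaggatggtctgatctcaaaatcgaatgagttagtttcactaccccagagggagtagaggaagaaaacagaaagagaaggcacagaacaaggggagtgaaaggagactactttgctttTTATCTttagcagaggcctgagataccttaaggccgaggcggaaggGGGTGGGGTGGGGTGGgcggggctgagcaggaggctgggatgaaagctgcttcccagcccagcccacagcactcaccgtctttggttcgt
Hba-a1: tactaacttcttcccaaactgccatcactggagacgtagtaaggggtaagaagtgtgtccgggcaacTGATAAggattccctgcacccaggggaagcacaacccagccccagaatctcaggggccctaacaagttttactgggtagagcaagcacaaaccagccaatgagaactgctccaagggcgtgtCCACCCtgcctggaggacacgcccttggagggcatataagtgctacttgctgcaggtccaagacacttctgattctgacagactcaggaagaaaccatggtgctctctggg
In Alas2 the GATA motif lay on the reverse strand 86 bases before the start, and 3 CACC boxes that overlap by a base ran from 40 bases before it. In Hba-a1 a GATA motif lay 183 bases before the start and a CACC box 61 bases before it. These are matches of letters, not measured binding.

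Platelet and iron genes were more often lower than higher in thymus. The lists share members: Nfe2 and Gata1 are also red cell genes, Tfrc is on the iron and the red cell list, and Ltf and Lcn2 are on the iron and the neutrophil list. Of 14 platelet and megakaryocyte genes, 10 were lower in thymus and 2 higher, with a median of -1.31. Ppbp, a platelet chemokine, read 3.16 and 2.38 in spleen and -0.31 and -1.29 in thymus, and Pf4, platelet factor 4, 1.48 and 1.56 against -0.40 and -1.09. Both were highest of all sources in spleen. Of 14 iron and haem genes, 6 were lower in thymus and 1 higher. Hmox1, which opens the haem ring in red pulp macrophages, read 1.61 and 1.77 in spleen and 0.013 and -0.063 in thymus. Slc40a1, the iron exporter of the same cells, did not pass the test: it read 0.40 and 0.90 in spleen and 0.20 and 0.43 in thymus, and the groups overlapped.

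Neutrophil granule genes held the largest difference of all genes tested, that of Camp. Of 13 measured, 12 were lower in thymus, and the median was -2.35. Camp, the antimicrobial peptide cathelicidin, read 6.49 and 6.08 in spleen and 0.65 and 0.61 in thymus, a difference of -5.66 ± 0.42. Prtn3 and Mpo, proteinase 3 and myeloperoxidase of primary granules, were lower in thymus by 4.82 ± 0.28 and 3.17 ± 0.29. S100a8, a calcium-binding protein of mature neutrophils, read 5.16 and 4.70 in spleen and 0.19 and 0.42 in thymus. Ltf, lactoferrin of secondary granules, read 5.41 and 5.85 against 1.21 and 1.35. Camp, Prtn3, Mpo and S100a8 had the highest mean of all 88 sources in spleen. The gene called the other way was Lcn2, lipocalin 2, at 0.95 ± 0.22, but another probe of Lcn2 gave -5.23, so its probes disagree. Slfn4, a schlafen gene of myeloid cells, was lower in thymus by 4.23 ± 0.41.

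Macrophage genes were split. Of 21 measured, 7 were higher in thymus and 6 lower. C1qc, a chain of complement C1q, read 2.50 and 2.39 in thymus, highest of all sources, and -0.073 and 0.86 in spleen. Cd68, a lysosomal protein of macrophages, was higher in thymus by 1.71 ± 0.24. Dnase2a, the nuclease with which macrophages digest the DNA of engulfed cells, was higher in thymus by 1.83 ± 0.23. It is on the apoptosis list and not among these 21 genes. Lilrb4a and Pilra, inhibitory receptors of myeloid cells, were lower in thymus by 3.30 ± 0.23 and 1.90 ± 0.39. Of 12 dendritic cell genes, 4 were higher and 5 lower in thymus. Only 2 were higher without the first thymus array, 1 of 7 tested without the first spleen array, and 1 with series as a covariate. Irf8, a factor of monocytes and dendritic cells, was lower by 1.65 ± 0.28, with another probe at 0.67, and Tlr7, a receptor for single-stranded RNA, by 1.26 ± 0.24. Among the genes higher in thymus, Ccl22 had a mean of 2.47 in thymus and read 0.70 on a single spleen array. Mean levels of Ly6d were 2.97 in thymus and 1.89 in spleen, and those of Cst3 were 0.75 and -0.31. Of 6 natural killer and cytotoxic genes, 3 were lower and none was higher, but only 1 of the 6 had a value on the second spleen array, and without the first spleen array it was not called.

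Cell division genes were higher in spleen than in thymus. Of 41 measured genes of DNA replication, 23 were lower in thymus and 3 higher, with a median of -0.89. Of 32 genes of mitosis and cytokinesis, 25 were lower and 2 higher, with a median of -1.25. Tk1, thymidine kinase, read 1.51 and 1.99 in spleen and -0.057 and -0.25 in thymus, a difference of -1.90 ± 0.29. Aspm, a spindle protein, read 2.22 and 1.79 in spleen and -0.038 and -0.32 in thymus. Plk4, the kinase of centriole duplication, was lower in thymus by 2.35 ± 0.30, Mcm10, which starts replication forks, by 1.97 ± 0.28, and Ncapg2, a condensin subunit, by 3.47 ± 0.42. Aspm, Plk4, Tk1, Mcm10 and Ncapg2 had their highest mean of all sources in spleen. The thymus arrays lay between -1.13 and 0.051 for these 5 genes, and every spleen array lay above them.

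Not all replication genes followed. Pcna, the sliding clamp, read 0.81 and 1.31 in thymus and 0.81 and 1.19 in spleen, a difference of 0.064 that did not pass the test. Mean levels of Mcm6 were 1.29 in thymus and 0.38 in spleen, and those of Rpa2 were 0.70 and -0.20. Such genes were few, with 3 of the 41 called higher in thymus against 23 lower. Tubb5, a beta tubulin, and Rad21, a cohesin subunit, were the 2 mitosis genes higher in thymus, by 1.38 ± 0.22 and 1.10 ± 0.23, and another probe of Tubb5 gave -0.68. Over the 27 mitosis genes with a value on every array compared, the mean was 1.12 and 0.90 in spleen, 0.96 and 0.92 in fetal liver, -0.06 and -0.07 in thymus and -0.35 and -0.36 in lymph node. Spleen and fetal liver, which both make blood cells, lay together and above thymus in this mean. The part of blood-forming cells in the difference was not tested. With series as a covariate 13 replication and 14 mitosis genes were lower in thymus, and without the first spleen array 16 of 34 and 15 of 27.

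**Figure D2:**
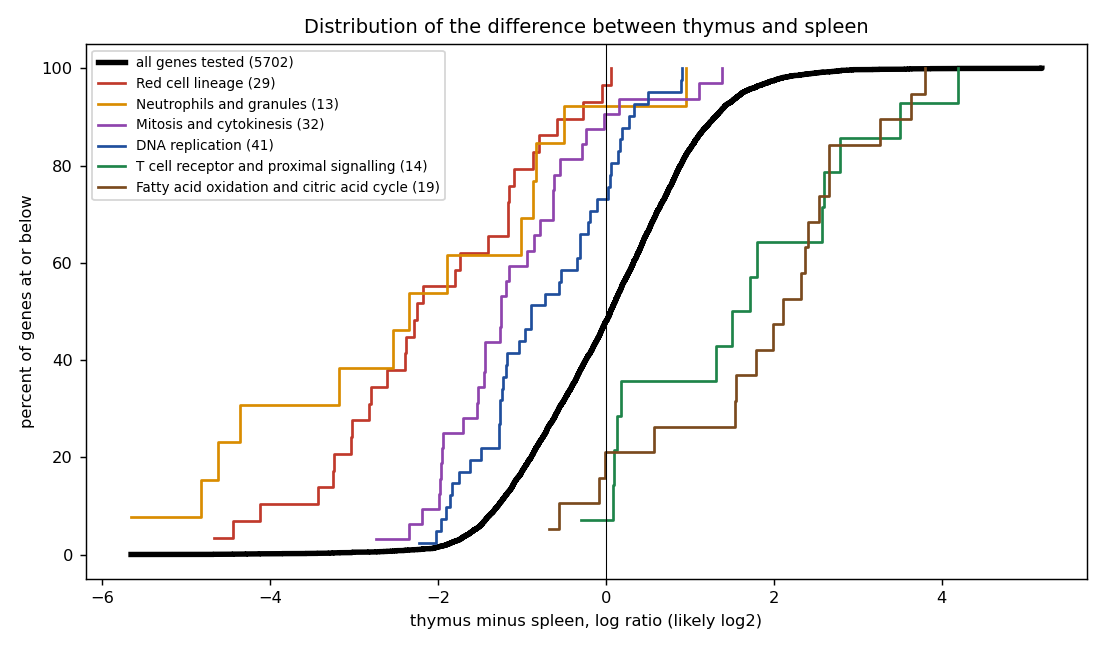
Cumulative share of genes (percent) by the difference between thymus and spleen (log ratio, likely log2) for 6 gene lists and for all 5702 genes. Red cell, neutrophil, mitosis and replication genes lie left of the black line of all genes, and T cell receptor genes lie right of it. The fatty acid oxidation line is a description only, since that list was written after its leading genes were seen.

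Promoters of the division genes are shown because replication and mitosis genes are known to be switched on through different sites. E2F factors bind the motif TTTGGCG and its close forms, searched here as TTTCCCG beside TTTCGCG and beside TTTGCCG, and mitosis genes often carry the cell cycle homology region TTTGAA near the start, with CCAAT boxes upstream. An E2F motif was in 15 of 34 replication genes with a window (44.1%) and in 6 of 27 mitosis genes (22.2%), against 12.6% of array genes. The homology region was in 15 of 27 mitosis genes (55.6%) and in 4 of 34 replication genes (11.8%), against 14.5%. Both strands were searched, matches of different E2F motifs may overlap, and CCAAT was in 66.7% of mitosis genes against 43.1%. Windows follow for Mcm10 (chr2:5012742-5013041, minus strand, E2F motif in capitals) and Aspm (chr1:139454523-139454822, plus strand, TTTGAA and CCAAT of either strand in capitals, its E2F match in lower case).
Mcm10: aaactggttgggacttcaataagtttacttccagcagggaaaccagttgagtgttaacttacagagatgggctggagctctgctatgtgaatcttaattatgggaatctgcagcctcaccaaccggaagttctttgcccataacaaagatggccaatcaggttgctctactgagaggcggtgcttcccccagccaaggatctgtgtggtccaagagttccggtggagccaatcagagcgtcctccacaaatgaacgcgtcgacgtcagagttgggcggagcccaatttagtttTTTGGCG
Aspm: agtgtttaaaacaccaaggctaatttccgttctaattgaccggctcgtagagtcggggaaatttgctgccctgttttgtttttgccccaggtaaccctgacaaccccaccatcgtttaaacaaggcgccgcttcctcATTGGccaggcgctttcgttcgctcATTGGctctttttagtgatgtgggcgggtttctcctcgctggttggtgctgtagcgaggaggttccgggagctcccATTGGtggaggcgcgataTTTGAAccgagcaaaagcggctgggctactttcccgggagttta
The Aspm window has 3 CCAAT boxes, all on the reverse strand, and its TTTGAA begins at base 7 after the start. The E2F motif of Mcm10 begins at base 44 after the start.

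Fat and fatty acid genes were among the largest differences in favour of thymus. Gpd1, which makes the glycerol backbone of triglyceride, read 2.68 and 2.84 in thymus and -3.07 and -1.80 in spleen, a difference of 5.19 ± 0.28 (limma, adjusted p = 4.6e-29). Fasn, fatty acid synthase, read 2.84 and 2.98 against -1.46 and -1.37, and Cidea, a lipid droplet protein, 3.43 and 3.14 against -1.21 and 0.049. Of 13 fat cell genes measured, 7 were higher in thymus and 2 lower, with a median of 1.17. The genes lower in thymus were Lep, leptin, by 0.77 and Scd1 by 0.39, and both calls were lost after quantile normalization (limma, adjusted p = 0.096 and 0.17). In brown adipose tissue Gpd1 read 3.31 and 3.80, Fasn 3.95 and 4.83 and Cidea 1.64 and 1.75. Cidec, another lipid droplet protein, read 0.42 and 0.56 in thymus and 4.11 and 5.25 in brown adipose tissue. Thymus thus lay close to brown adipose tissue for Gpd1, above it for Cidea and far below it for Cidec. Over the 12 genes of the list with a value on every array compared, the mean was 0.99 and 1.05 in thymus, -0.61 and -0.17 in spleen and 1.88 and 2.34 in brown adipose tissue. The defining fat markers Adipoq, Fabp4, Cfd and Plin1 had no probe. Of the 937 genes at least 1 unit higher in thymus, 65 (6.94%) read 1 or more on both brown adipose arrays, against 144 of all 5702 genes (2.53%). The part of fat around the thymus in these differences was not tested.

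Genes of mitochondrial fuel use were higher in thymus too. Of 19 measured genes of fatty acid oxidation and the citric acid cycle, 15 were higher in thymus and 2 lower, with a median of 2.11. That list was written after Acadm and Hadhb were seen to be high, so its count describes and supports nothing. Acadm, the medium-chain acyl-CoA dehydrogenase, read 2.00 and 1.93 in thymus and -2.16 and -1.52 in spleen, and Hadhb, a subunit of the trifunctional oxidation enzyme, 1.91 and 1.86 against -1.96 and -1.54. Pdha1, of pyruvate dehydrogenase, was higher by 3.26 ± 0.21 (another probe gave 1.89) and Etfa, which passes electrons from oxidation to the chain, by 2.66 ± 0.22. For Acadm and Hadhb thymus lay above brown adipose tissue, which read 0.74 and 1.12 for Acadm. ERR factors bind AAGGTCA, which was in 2 of 17 windows of these genes, against 4.1% of array genes.

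The respiratory chain showed the same direction. Of 32 measured genes, 23 were higher in thymus and 1 was lower, with a median of 0.92. Sdhb and Sdha, subunits of succinate dehydrogenase, were higher by 2.38 ± 0.39 and 1.84 ± 0.22, and Ndufa8 of complex I by 2.03 ± 0.14. Ndufa8 read 0.096 and 0.085 in thymus and -2.07 and -1.81 in spleen, its lowest mean among the 88 sources. Thymus lay near 0 in this group and spleen below it: the mean over the 31 genes with a value on every array compared was -0.01 and 0.11 in thymus, -0.97 and -0.64 in spleen and -1.23 and -1.19 in blood mononuclear cells. Ndufa9, the gene called the other way, was lower in thymus by 1.14 ± 0.28. Between 20 and 23 genes were higher in thymus under each scaling, lot, series and leave-out setting tried.

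**Figure D3:**
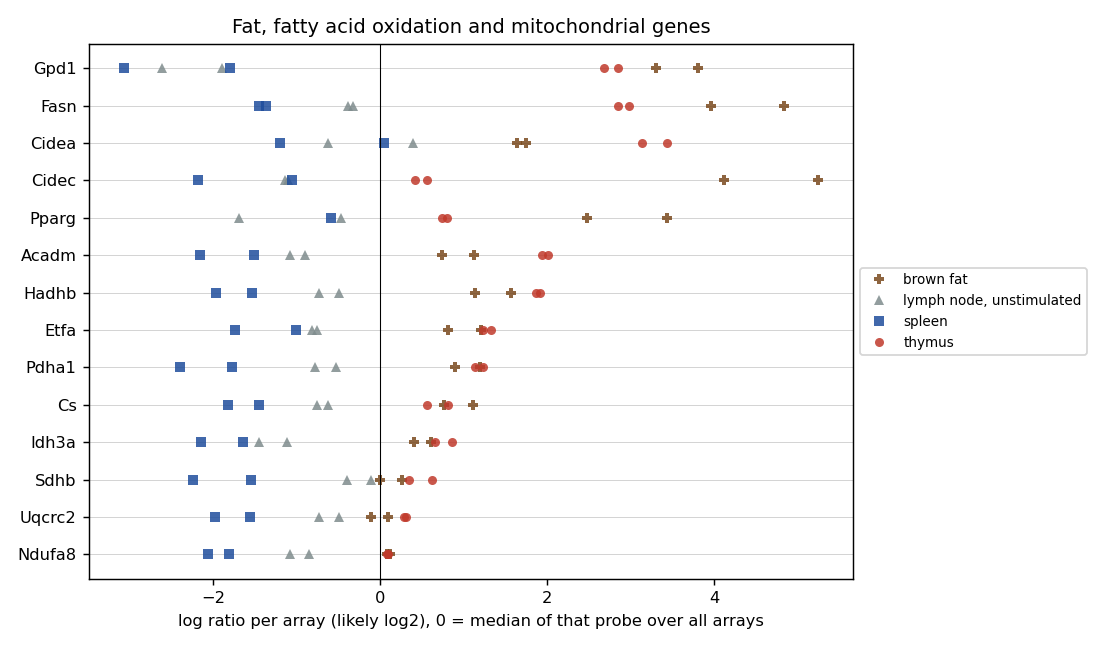
Log ratio per array (likely log2) of fat, oxidation and respiratory chain genes in thymus (circles), spleen (squares), unstimulated lymph node (triangles) and brown adipose tissue (crosses). Thymus lies near brown adipose tissue for Gpd1, above it for Acadm and below it for Cidec, and the spleen points lie left of all thymus points.

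Connective tissue genes were more often higher in thymus. Of 35 matrix and fibroblast genes, 16 were higher and 3 lower, with a median of 0.41, and quantile normalization left 10 higher. Lum, lumican, read 1.01 and 0.76 in thymus and -1.64 and -2.06 in spleen, and Postn, periostin, 0.43 and 0.23 against -2.34 and -1.89. Thy1 also stands on this list, since fibroblasts carry it. Of 22 endothelial genes, 3 were higher and 4 lower. Nrp1, a co-receptor of vascular growth factor, was higher by 1.86 ± 0.25, and Aqp1, a water channel of vessels and red cells, was lower by 1.16 ± 0.21. Other probes of Nrp1 and Aqp1 gave -1.28 and 0.77, so the probes of both genes disagree. Cxcr4, the receptor of the chemokine Cxcl12, was higher in thymus by 1.70 ± 0.25, and Cxcl13, which draws B cells into follicles, was lower by 1.99 ± 0.38.

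Markers of neighbouring tissues were checked in the same way. Of 12 skeletal muscle genes 3 were higher in thymus and 1 lower, and over the 10 with a value on every array compared the mean was -0.26 and -0.80 in thymus and -1.27 and -0.88 in spleen. Acta1, Ckm and Tnnt3 had no probe. Of 6 pancreatic acinar genes 1 was higher and 2 were lower in thymus. Clps, colipase of the acinar cell, read 0.59 and 0.90 in spleen and -0.78 and -0.71 in thymus, and lost its call under 5 of 8 alternatives. Neither thyroid gene measured passed the test.

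Chromatin and RNA processing genes were higher in thymus more often than lower. Of 22 chromatin genes 11 were higher and 3 lower, with a median of 0.48. Hdac7, the class II deacetylase of thymocytes, read 3.57 and 3.62 in thymus, highest of all sources, and 1.68 and 0.45 in spleen. Smarca4, the ATPase of a remodelling complex, was higher by 2.09 ± 0.19 and Dnmt3a, a DNA methyltransferase, by 1.63 ± 0.30. Of 44 splicing and RNA processing genes 24 were higher and 9 lower. Sf3b1, of the U2 particle, was higher by 2.56 ± 0.20 and Prpf8, the core of the spliceosome, by 1.89 ± 0.21, while Prpf31 was lower by 1.89 ± 0.20.

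Interferon, apoptosis and salvage genes were mixed. Of 29 interferon response genes 15 were higher in thymus and 6 lower, with a median of 0.57, and 9 were higher with series as a covariate. Usp18, which removes the ubiquitin-like Isg15, was higher by 1.49 ± 0.38 and Iigp1, an immunity GTPase, by 1.49 ± 0.29, with other Iigp1 probes at -0.92 and 1.64. Rsad2, viperin, was lower by 2.50 ± 0.29. Of 24 apoptosis genes 8 were higher and 6 lower: Stk17b, a death-associated kinase, was higher by 1.86 ± 0.41 (another probe gave 0.82), and Cflar, the caspase 8 inhibitor, was lower by 1.87 ± 0.23. Of 25 purine and pyrimidine genes 6 were higher and 9 lower, and 5 of 19 genes for ribosomal proteins were higher against 3 lower. Of 17 immediate early and heat shock genes, which move with tissue handling, 6 were higher and 4 lower. Nr4a1, named above beside the thymocyte genes, is among these 17. Over the 11 of them with a value on every array used for such means, the mean was 0.19 and 0.36 in thymus and 0.25 and 0.09 in spleen, and the organs overlapped. Ppp1r15a, a stress gene, was lower in thymus by 2.38 ± 0.21.

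**Figure D4:**
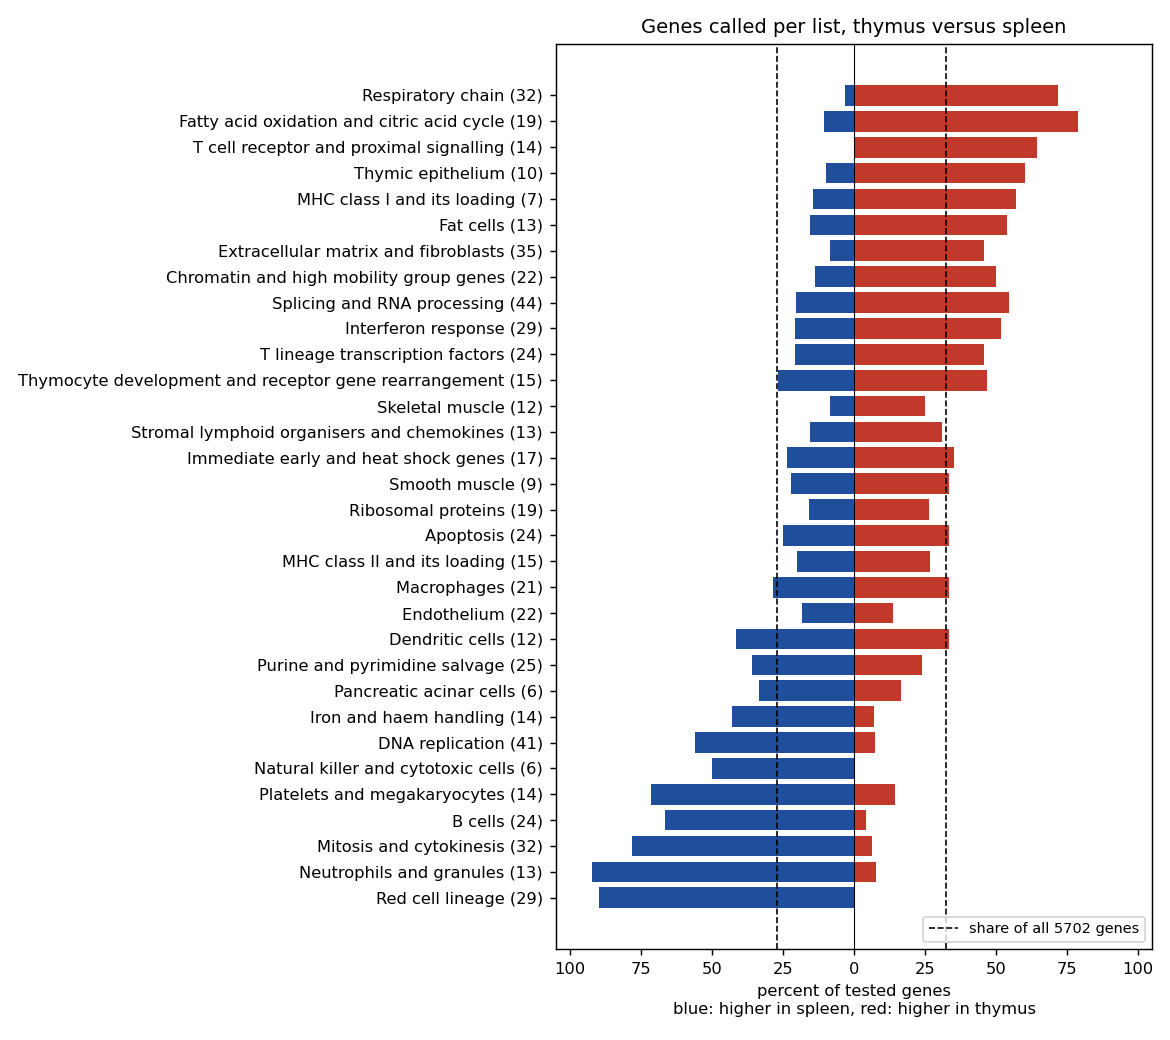
Percent of the tested genes of each list (number in parentheses) that were higher in thymus (red, right) or in spleen (blue, left) by limma at adjusted p under 0.05. Dashed lines mark the shares over all genes, 32.4% and 27.0%. Red cell, neutrophil, mitosis and B cell lists reach far beyond the line on the spleen side, and respiratory chain and T cell receptor lists beyond that on the thymus side. The fatty acid oxidation list, written after its leading genes were seen, is drawn as a description only.

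Each organ was then set beside the unstimulated lymph node. These comparisons share arrays with the one above and with each other, so their values are given side by side only. Thymus differed from lymph node at 3587 probes (41.5%) and spleen at 3758 (43.5%). Lymph node arrays had the lower medians, -0.15 and -0.066, against 0.12 and 0.14 in thymus and 0.16 and 0.099 in spleen. Of the probes called, 79.1% were higher in thymus than in lymph node and 68.3% higher in spleen than in lymph node, and with array medians set to 0 these shares were 57.2% and 44.3%. The median difference of all probes was 0.32 and 0.27 before and 0.081 and 0.014 after that step. Gene values and list counts below are those after that step. After it, 1645 of 8638 probes were higher and 1230 lower in thymus than in lymph node. For spleen, 1571 of 8638 probes were higher and 1973 lower than in lymph node. These counts cover all probes, while the lists hold a single probe per gene. No matching share over genes is given, so the list counts below are a description only.

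T cell genes were higher in thymus and lower in spleen than in lymph node, and B cell markers were lower in both. Thy1 was 1.58 higher in thymus and 2.62 lower in spleen than in lymph node. Cd79a was 3.57 lower in thymus and 1.56 lower in spleen, and Igh was 3.07 lower in thymus and differed by 0.54 in spleen, which did not pass the test. Prss16 was 5.17 higher in thymus and 1.57 higher in spleen than in lymph node. Ets1 was 0.82 higher in thymus and 2.01 lower in spleen. Cd79a, Cd79b and Ms4a1, the B cell markers with a probe, were all lower in both organs than in lymph node. The whole B cell list was less uniform in spleen. Of its 24 genes, 18 were lower and 2 higher in thymus than in lymph node. In spleen 8 were lower and 2 higher, with a median difference of -0.32. Of the 14 T cell receptor genes, 9 were higher and 1 lower in thymus, and none was higher and 9 were lower in spleen.

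Red cell and granule genes separated the spleen from the lymph node as well. Slc4a1 was 5.97 higher in spleen than in lymph node and Camp 5.89 higher. In thymus Slc4a1 was 1.31 higher than in lymph node, and Camp differed by 0.24, which did not pass the test. Fat genes separated the thymus from the lymph node: Gpd1 was 4.78 higher and Cidea 3.17 higher in thymus, while the spleen differed from lymph node by -0.41 and -0.70, neither past the threshold. Of 32 respiratory chain genes, 23 were lower and 1 higher in spleen than in lymph node, and 10 were higher and 4 lower in thymus.

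Pdk1, Car6 and Lyve1 were lower in both organs than in lymph node. Pdk1, pyruvate dehydrogenase kinase, read 4.61 and 5.40 in lymph node and was 4.13 lower in thymus and 5.44 lower in spleen. Car6, a secreted carbonic anhydrase of salivary glands, read 2.75 and 3.29 in lymph node and was 4.14 lower in thymus and 3.04 lower in spleen. Lyve1, a receptor of lymphatic vessels, was 3.22 lower in thymus and 3.19 lower in spleen, and thymus and spleen did not pass the test against each other. Selenop, a plasma selenoprotein, was 3.29 lower in spleen and did not pass the test in thymus. Pdk1 and Car6 each lost the thymus against spleen call without the second thymus array, and Pdk1 also after quantile normalization and with series as a covariate.

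**Figure D5:**
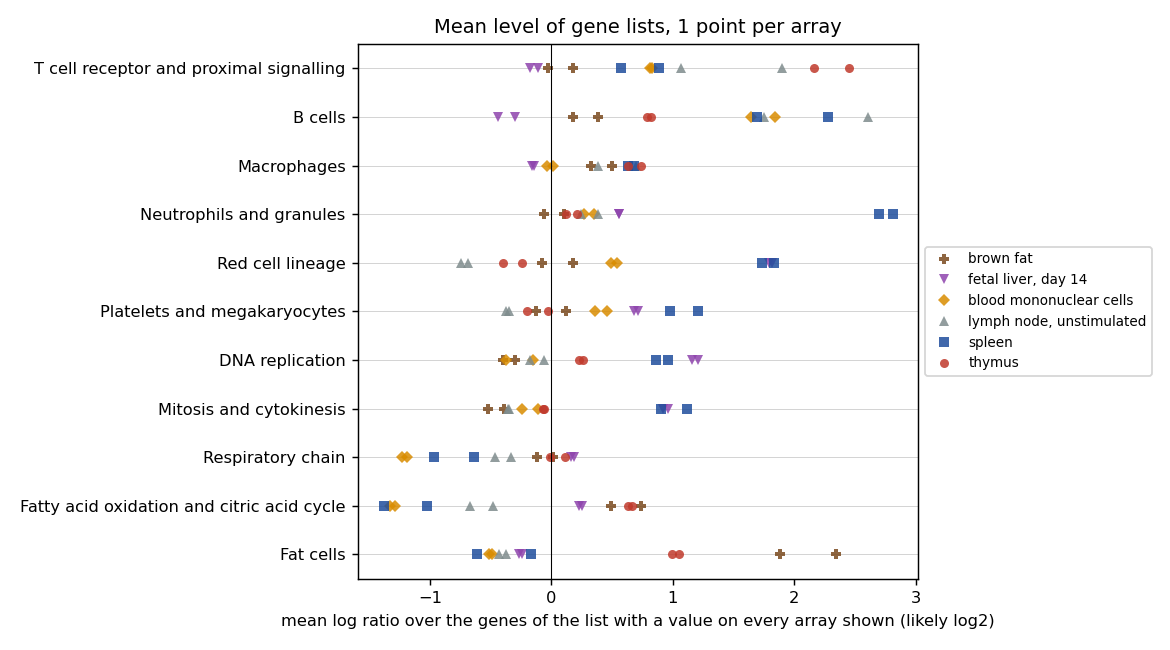
Mean log ratio (likely log2) over the genes of 11 lists that have a value on every array shown, with 1 point per array for thymus, spleen, unstimulated lymph node, blood mononuclear cells, haematopoietic fetal liver and brown adipose tissue. Spleen lies with fetal liver for red cell and mitosis genes, and thymus lies highest for T cell receptor genes and between spleen and brown adipose tissue for fat genes.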

How the data were processed

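Each of 171 arrays held tissue RNA in 1 channel and universal mouse reference RNA in the other, per the labels. The deposited values are log ratios, likely log2; their base, direction, scanner software and normalization were not given in the sources used here. Among the deposited values, 8709 of 8734 probes had a median within 0.001 of 0 over the arrays, while array medians differed. Symbols were updated through Entrez identifiers, which gave 7540 probes with 1 symbol, 14 with several and 1180 with none. Promoter windows came from RefSeq (GRCm38.p6).

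Probes with values on at least 80% of arrays and in both groups were tested with limma 3.58.1 in R 4.3.3, with 1 mean per source over 88 sources, and Benjamini-Hochberg adjustment over 8638 probes. Tables and plots used numpy 2.4.6, pandas 2.3.3 and matplotlib 3.10.9 under Python 3.11.15. On simulated data with 200 changed probes of 8638 in the thymus and spleen design, 67% of 2-fold and 97% of 4-fold changes were recovered, with 4 false calls among 168. The simulated noise was independent between probes and held no lot or series effect. Far fewer probes were changed than were called in the real arrays. These rates therefore do not carry over to the real comparison. A gene was represented by the probe with values on the most arrays. Of 1402 tested genes with several probes, 241 had probes called in opposite directions.

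Named genes were called genes with the arrays of both organs fully apart: the 15 largest differences each way, 6 each way for each lymph node comparison, up to 4 per list, and the markers. Cd247, Cd24a, Il7r, Notch1, Gata1, Klf1, Lcn2, Pcna, Tubb5, Rad21, Lep, Scd1 and Ndufa9 were chosen after their values were seen. Members and lists were chosen with earlier results of these data known. The 34 lists held 1537 genes, of which 616 had a probe. Alternatives were centring, quantile normalization, array lot or series as a covariate, other sets of arrays and probes, and leaving out each array. The number of arrays limits the precision.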

Additional observations from a re-analysis of the deposited data

How the results depend on the processing

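Of the 5040 probes called between thymus and spleen, 4999 stayed called after centring, 3632 after quantile normalization, 4629 with lot and 3424 with series as a covariate. With series 60 turned sign. Calls numbered 3206 with only the arrays compared, 3280 with probes averaged per gene, and 2932 to 4983 without a replicate, lowest without the first spleen array, where 5495 probes could be tested. Thymus against lymph node gave 1848 calls after quantile normalization, 1894 with only the arrays compared, 1228 with immune arrays only and 2272 to 3203 without a replicate. Spleen against lymph node gave 2161, 1317 and 1538 under those settings, 1997 with series as a covariate and 1598 to 3905 without a replicate. The cause was not tested. No called probe between thymus and spleen was called the other way with series, but medians of some lists changed sign: thymocyte development from 0.44 to -0.36 without the first spleen array, MHC class II from -0.01 to as much as 0.83 without that array, purine genes from -0.23 to 0.12 and acinar genes from -0.46 to 0.33 with series, stromal genes from 0.36 to -0.079 without the second spleen array, smooth muscle from -0.23 to 0.097 without the second thymus array, and endothelium from 0.005 to -0.038 after quantile normalization and -0.021 without the first thymus array. Of the named genes, 138 were called, and 118 kept their call under every one of 8 alternatives in which their probe could be tested. Genes with a single spleen value could not be tested without the first spleen array, so for them that alternative is missing. H2-DMa ranged from 1.01 to 2.37. No paired analysis was possible because the labels of the arrays compared carry no replicate numbers. Limits: each organ has 2 arrays, lot goes with organ, strain is given for spleen alone, and 3143 probes rest on a single spleen array.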

Other observations

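Other probes followed alpha globin across the survey. The probes were read on the same arrays, and all 88 sources share the reference RNA. Over the source means, the probe named Tmem185a correlated with Hba-a1 at r = 0.951 and that of Mrps18b at 0.947. The probe of Pex16 correlated at 0.934 and that of Timm17a at 0.907. Tmem185a, a membrane protein gene, read 0.76 and 1.02 in thymus, 5.03 and 5.32 in spleen and 10.7 and 10.6 in blood mononuclear cells. Mrps18b, a mitochondrial ribosome gene, differed by -3.91 ± 0.27 between thymus and spleen, while another of its probes gave 1.23. Pex16, of peroxisome assembly, differed by -3.77 ± 0.31, and its other probe gave -0.01. What these probes detect was not tested.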
